A study of Homo sapiens with 6 samples.

Results

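The RNAs described here are long noncoding RNAs (lncRNAs) recovered by RNA immunoprecipitation sequencing (RIP-seq) from WaGa, an established Merkel cell carcinoma (MCC) cell line that carries Merkel cell polyomavirus. The set held every gene typed as lncRNA in the count table with at least 50 counts in each of the 6 libraries, which gave 464 genes. *TUG1*, typed as protein coding in the table, and *LINC01278*, below the minimum in the IgG IP, were added because both were higher in the IGF2BP3 IP. The set was therefore 466 of the 60655 genes listed. The libraries were 3 from IGF2BP3 IP and 3 from IgG IP, the negative control, each from untreated wild-type WaGa cells in 3 independent replicates, so the results hold for 1 cell line. Input RNA was not analysed here, so a fold change compares the make-up of an IGF2BP3 IP with that of an IgG IP, and in a bulk lysate fewer cells with an RNA and less RNA per cell cannot be told apart.

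IGF2BP3 is an RNA-binding protein with RNA recognition motifs and KH domains that regulates the stability, localization and translation of its target RNAs. It is known to bind mainly mRNAs, at CA-rich and GGC-containing elements and at m6A-marked sites, and several lncRNAs have been reported to interact with proteins of its family. LncRNAs are transcripts without a known long reading frame, among them nuclear scaffolds such as *MALAT1* and *NEAT1*, the spliced host transcripts of small nucleolar RNAs (snoRNAs), and antisense or divergent transcripts next to coding genes.

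The sequences below are the 120-base stretch of each RNA's GENCODE canonical transcript with the most bases inside CACA or GGC. They are shown so that the 4 lncRNAs called higher in the IGF2BP3 IP can be read beside 2 abundant lncRNAs that were not called. Capitals mark CACA and GGC on the transcript's own strand, and the 2 motifs can share bases. The RNAs shown were chosen after their values were seen. Coordinates are GRCh38 and exons are those of the GENCODE version 44 canonical transcript, on the strand given.
*LINC01278*, chrX:63223081-63223200, minus strand, exon 6 of 6: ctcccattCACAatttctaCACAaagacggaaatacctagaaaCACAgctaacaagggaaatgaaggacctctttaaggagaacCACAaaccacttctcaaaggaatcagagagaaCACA
*TUG1*, chr22:30969592-30969711, plus strand, exon 1 of 3, inside its annotated coding sequence: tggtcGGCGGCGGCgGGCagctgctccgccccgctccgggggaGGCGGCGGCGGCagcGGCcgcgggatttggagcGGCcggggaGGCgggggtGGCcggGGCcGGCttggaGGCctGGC
*LINC00294*, chr11:33077090-33077209, plus strand, single exon: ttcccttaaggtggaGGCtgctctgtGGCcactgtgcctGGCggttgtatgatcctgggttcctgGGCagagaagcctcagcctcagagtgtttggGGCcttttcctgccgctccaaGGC
*EMX2OS*, chr10:117542200-117542319, minus strand, exon 1 of 3: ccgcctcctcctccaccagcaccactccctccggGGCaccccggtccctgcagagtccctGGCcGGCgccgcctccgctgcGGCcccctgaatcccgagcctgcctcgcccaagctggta
*MALAT1*, chr11:65498319-65498438, plus strand, single exon: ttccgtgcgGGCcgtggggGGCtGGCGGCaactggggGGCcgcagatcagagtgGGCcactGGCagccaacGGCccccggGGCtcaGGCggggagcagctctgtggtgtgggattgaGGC
*DANCR*, chr4:52723212-52723331, plus strand, exon 4 of 4: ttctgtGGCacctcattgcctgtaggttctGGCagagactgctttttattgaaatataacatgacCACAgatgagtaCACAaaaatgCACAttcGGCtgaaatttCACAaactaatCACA
The stretch of *LINC01278* held 5 CACA and 0 GGC, and that of *DANCR* held 5 CACA and 3 GGC. The other stretches held GGC alone, with 16 in *TUG1*, 11 in *MALAT1*, 6 in *LINC00294* and 4 in *EMX2OS*. Of 8840 tiled windows of 120 bases over the set, 5.54% had at least the 20 motif bases of the *LINC01278* stretch, 0.339% the 33 of *MALAT1*, 0% the 48 of *TUG1* and 27.2% the 12 of *EMX2OS*. The *MALAT1* stretch thus held more motif bases than those of *LINC01278*, *LINC00294* and *EMX2OS*, and fewer than that of *TUG1*. Each stretch shown was the best of all positions in its transcript, while the tiled windows were not chosen. These shares therefore do not measure how rare a stretch is. A longer transcript also offers more positions, and lengths ran from 520 bases in *EMX2OS* to 10434 in *MALAT1*.

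Library totals ran from 9758759 to 14886414 counts. Replicate 1 differed from the other replicates with either antibody. Of the 466 lncRNAs, 210 were highest in replicate 1 in both the IgG IP and the IGF2BP3 IP, whereas replicates 2 and 3 were highest in both groups for 39 and 25. The numbers lowest in both groups were alike, at 72 for replicate 1, 77 for replicate 2 and 78 for replicate 3. A second fit that blocks on replicate number is given where it changed a call. Of 13 MCC markers, 13 passed the expression filter, among them *ATOH1* and *KRT20*. Of 12 markers of other cell types, 10 did not pass and 2 did. *KRT5* had 4 to 11 counts and the fibroblast gene *DCN* had 479 to 762. The filter asks for few counts, so passing it does not by itself identify the line. *DCN* had a log2 fold change of -0.21, and its part in the results was not tested.

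In the IGF2BP3 IP, few lncRNAs were enriched. An RNA was called when it changed at least 1.5-fold with *P* under 0.05 after Benjamini-Hochberg adjustment over the 14507 genes tested in edgeR (quasi-likelihood). Of the 464 lncRNAs chosen on counts alone, 2 (0.431%) were higher, *LINC00294* and *EMX2OS*, against 1.16% of all tested genes. Among 9408 protein-coding genes held to the same count minimum, the share was 1.56%, but their level was not matched to that of the lncRNAs. None of the lncRNAs was lower (0 of 464 in edgeR, with 0 in DESeq2). In edgeR, 0 of all tested genes and 0 of the protein-coding genes were lower as well. DESeq2 called 4 higher, against 1.94% of all tested genes. At an unadjusted *P* under 0.05 and any fold, 24 (5.17%) were higher and 11 (2.37%) lower in edgeR, against 9.72% and 3.1% of all tested genes. With the replicate block, 6 of 464 (1.29%) were called higher, against 3.56% of all tested genes and 3.3% of the protein-coding genes, and 0 were lower, against 0.103% of all tested genes. The 4 added by the block were *AC011603.2*, *LINC02600*, *AL662797.1* and *INSIG1-DT*. The calls were lost when some single libraries were left out, while the log2 fold changes stayed between 0.72 and 0.93 for *LINC00294* and between 0.68 and 0.75 for *EMX2OS*. With replicate 2 or 3 of the IgG IP left out, edgeR called 0 of 464, with 13 and 19 higher at an unadjusted *P* under 0.05. With replicate 2 or 3 of the IGF2BP3 IP left out it also called 0, with 16 higher at that level each time, and without its replicate 1 it called 4. Over all tested genes the number called moved with the library left out too, and was 0 at its lowest. The range is given in the last section.

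Most of the set stayed close to no difference. The fitted log2 fold changes of the 464 ran from -0.57 to 0.95, with quartiles of -0.19 and 0.06 and a median of -0.06. The median was -0.01 over all tested genes and -0.02 over the protein-coding genes. A value within 0.25 of 0 was found for 360 of the 464 (77.6%), compared with 71.0% of all tested genes and 80.7% of the protein-coding genes. The standard error was 0.17 in the median lncRNA, and it fell from a median of 0.20 in the 125 with a mean count under 100 to 0.12 in the 22 with a mean count of 1000 or more. All 3 IGF2BP3 IP values exceeded all 3 IgG IP values for 31 of 464 (6.68%), against 12% of all tested genes, and the reverse held for 32 (6.90%), against 8.69%. With the block and no fold minimum, 27 of 464 (5.82%) were higher, against 10.9% of all tested genes, and 22 (4.74%) were lower, against 5.23%.

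**Figure D1:**
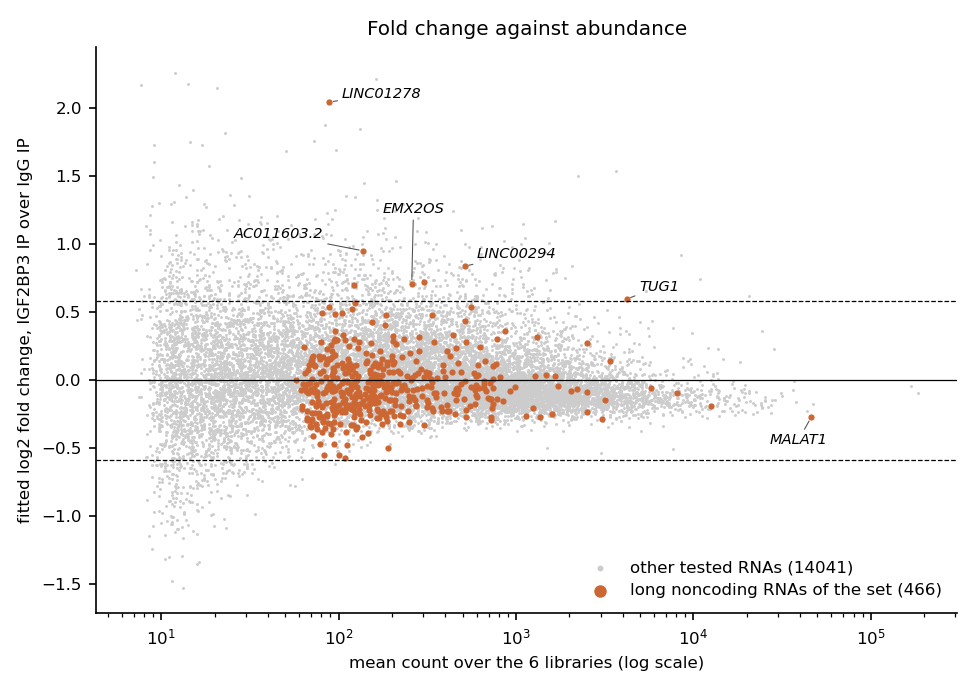
Each point is a tested RNA, with the mean count over the 6 libraries on a log axis and the fitted log2 fold change of IGF2BP3 IP over IgG IP. The 466 lncRNAs are orange, the other tested RNAs grey, and dashed lines mark 1.5-fold in either direction. Within the set *LINC01278* is the highest, at 2.05, but it was added for this contrast and was exempt from the count minimum. *LINC01266*, a scarce lncRNA outside the set, had 2.17 and is among the grey points. *MALAT1*, the most abundant of the set, lies at -0.27.

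*LINC01278* is a spliced intergenic lncRNA on the X chromosome (ENSG00000235437.8, chrX:63222993-63561095, minus strand). It had 23, 38 and 40 counts with IgG and 129, 170 and 131 with IGF2BP3, in replicate order. Scaled by library size and TMM factor (normalized CPM), this was 2.76 ± 0.409 with IgG and 11.4 ± 1.22 with IGF2BP3 (SD, n = 3 each). Each IGF2BP3 IP library was thus above each IgG IP library, and the 2 groups lay far apart. The fitted log2 fold change was 2.05 (95% confidence interval 1.63 to 2.46), or 4.13-fold. Within same-numbered libraries the log2 difference was 2.12, 2.33 and 1.72. This RNA was picked for this contrast, so the values are a description and carry no test. It was below the median level of the set, at a length-scaled 2.44 TPM with IgG and 6.23 with IGF2BP3.

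*TUG1* is an abundant, conserved lncRNA for which a short reading frame has been annotated (ENSG00000253352.10, chr22:30969245-30979395, plus strand). It had 2293, 4159 and 3481 counts with IgG and 4779, 5770 and 4756 with IGF2BP3. Normalized CPM were 249, 279 and 281 against 401, 436 and 387. The groups did not overlap, and replicate 1 was the lowest of the IgG IP but lay between the others in the IGF2BP3 IP. The fitted log2 fold change was 0.60 (95% confidence interval 0.40 to 0.79), which sits at the 1.5-fold minimum of 0.585, and the differences within pairs were 0.69, 0.64 and 0.46. *TUG1* too was picked for this contrast, and no test is given. Reads on it made up 0.0265% ± 0.00263 (SD, n = 3) of all counts in the IgG IP and 0.0413% ± 0.00239 (SD, n = 3) in the IGF2BP3 IP.

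*LINC00294* is a single-exon lncRNA (ENSG00000280798.1, chr11:33076149-33079454, plus strand). It had 227, 490 and 378 counts with IgG and 541, 799 and 641 with IGF2BP3. Normalized CPM averaged 29.3 ± 4.24 and 52.6 ± 7.48 (SD, n = 3 each). Replicate 1 was the lowest library of both groups, and the groups were apart. It was higher with IGF2BP3 by 0.84 on the log2 scale (standard error 0.14, edgeR adjusted *P* = 0.032), with differences of 0.88, 0.88 and 0.77 within pairs. Its exons overlap the coding gene *CSTF3* on the opposite strand over 7.96% of their length, and *CSTF3* had a log2 fold change of -0.10.

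*EMX2OS* runs opposite to the homeobox gene *EMX2* (ENSG00000229847.9, chr10:117473215-117545068, minus strand). It had 145, 227 and 206 counts with IgG and 320, 355 and 297 with IGF2BP3. Normalized CPM averaged 15.8 ± 0.711 and 25.9 ± 1.56 (SD, n = 3 each), with no overlap between groups. It was higher with IGF2BP3 by 0.71 on the log2 scale (standard error 0.11, edgeR adjusted *P* = 0.025). With a correction for GC content it was 0.54, below the 1.5-fold minimum, whereas *LINC00294* stayed called and *AC005261.1* was called as well. *EMX2* shares 3.90% of the exon length of *EMX2OS* and had a log2 fold change of -0.08.

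**Figure D2:**
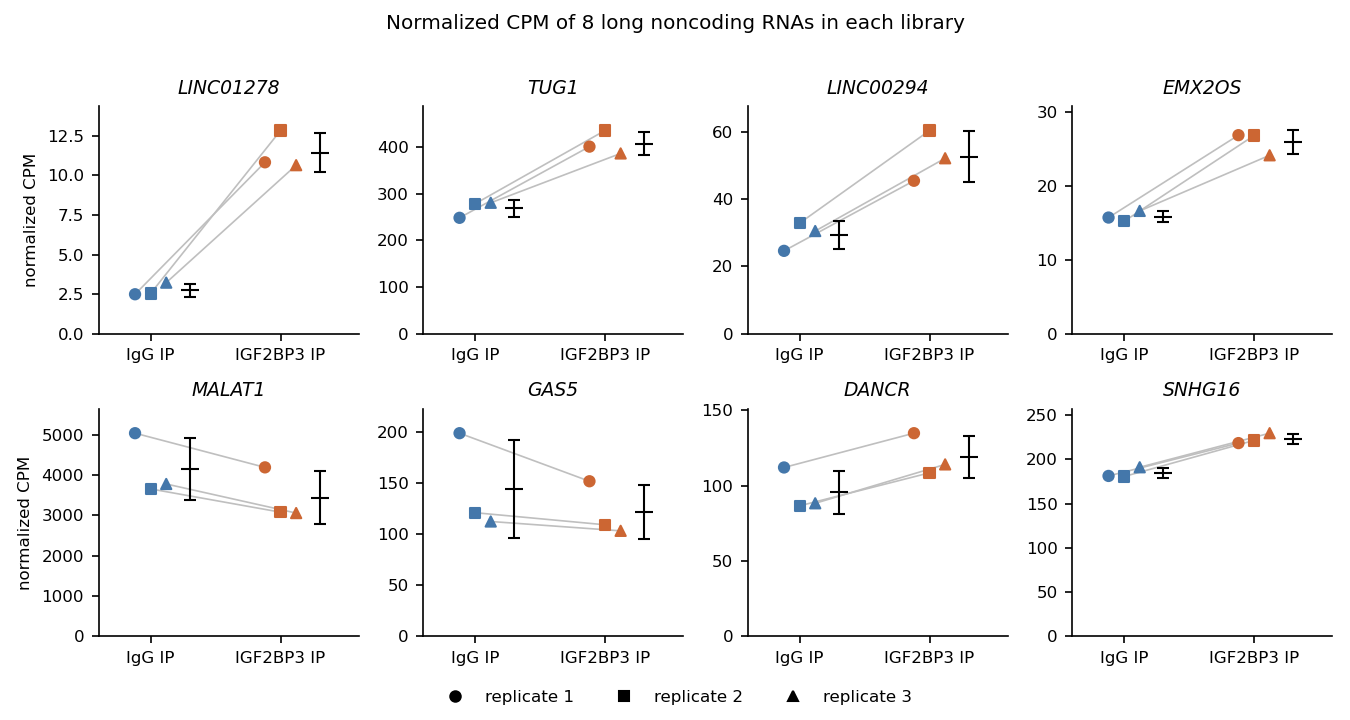
Normalized CPM (linear axes from 0) of 8 lncRNAs in each IgG IP library (blue) and IGF2BP3 IP library (orange), with lines joining libraries of the same replicate number and black bars giving the mean ± SD of 3. The groups are apart for *LINC01278*, *TUG1*, *LINC00294*, *EMX2OS* and *SNHG16*. In *MALAT1*, *GAS5* and *DANCR* replicate 1 is the highest library of both groups and the groups overlap.

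*AC011603.2* and *LINC02600* had large fitted values and were not called in edgeR without the block, while DESeq2 called both. *AC011603.2* had 71, 129 and 79 counts with IgG and 224, 158 and 165 with IGF2BP3, and the groups did not overlap. Its log2 fold change was 0.95 (edgeR adjusted *P* = 0.069, 7.9e-05 with the replicate block). It lies opposite the tubulin gene *TUBA1B*, which covers 34% of its exon length, had a mean count of 8561 and a log2 fold change of 0.93. Whether the authors' counting used the strand is not given in the sources used here, so reads of the 2 genes cannot be told apart. *LINC02600* had 133, 304 and 244 counts against 298, 441 and 396, with a log2 fold change of 0.72 (adjusted *P* = 0.083 from edgeR, 3.8e-06 with the block). Its libraries of replicate 1 were the lowest in both groups, and IGF2BP3 IP replicate 1 was still above all 3 IgG IP libraries in CPM.

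At the other end, no lncRNA of the set was called lower in edgeR, with or without the block. Of all tested genes, 0 were called lower without the block and 0.103% with it. With the GC correction and the block together, 3 were called lower, *CCNT2-AS1*, *AC025181.2* and *HOXD-AS2*, against 35 of the 14479 genes in that fit. The 5 smallest log2 fold changes were those of *AL121821.2* (-0.57), *CCNT2-AS1* (-0.55), *AC079305.2* (-0.55), *AC004540.2* (-0.50) and *SAP30-DT* (-0.48). *CCNT2-AS1* had 85, 149 and 123 counts with IgG and 71, 95 and 83 with IGF2BP3, and its normalized CPM were apart, at 9.71 ± 0.428 and 6.63 ± 0.616 (SD, n = 3 each). Its adjusted *P* was 0.14 in edgeR and 0.013 with the block. The normalized CPM of *AL121821.2* overlapped between the groups, with 127, 114 and 138 counts against 99, 92 and 79.

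The most abundant lncRNAs were not called in either direction. By mean TPM over the 6 libraries, which sets levels per transcript length, *MALAT1* led with 2797, followed by *SNHG8* (1469), *SNHG6* (1301), *GAS5* (385) and *DANCR* (255). The median of the set was 8.57 TPM, with 258 lncRNAs under 10 and 21 over 100. The protein-coding genes at the same count minimum had a higher median, 21.1 TPM. TPM came from the authors' separate RSEM estimate, and the 2 scales order some RNAs differently. *SNHG8* had 1162 to 1626 counts and *GAS5* 1270 to 1833, while their TPM differed more widely. *RMRP*, a lncRNA outside the set, was listed at 0 counts in every library and at 1616 mean TPM.

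*MALAT1*, a nuclear speckle RNA, had 46487, 54579 and 46858 counts with IgG and 49927, 40782 and 37625 with IGF2BP3. Normalized CPM averaged 4159 ± 765 and 3443 ± 648 (SD, n = 3 each). IGF2BP3 IP replicate 1 was above IgG IP replicates 2 and 3, so the groups overlapped, yet within each pair the IGF2BP3 IP was lower, by -0.27, -0.25 and -0.31 on the log2 scale. The log2 fold change of -0.27 had an adjusted *P* of 0.52 in edgeR and of 0.00023 with the replicate block. *MALAT1* alone held 0.407% of all counts in the IgG IP and 0.348% in the IGF2BP3 IP (exact two-sided permutation test, *P* = 0.3). The whole set held 1.80%, 1.65% and 1.67% of counts with IgG, against 1.75%, 1.61% and 1.61% with IGF2BP3 (difference -0.05 percentage points, same exact test, *P* = 0.5). Without *MALAT1* the difference was 0.01 percentage points (*P* = 0.5, same exact test). These tests do not use the pairing. Within same-numbered pairs the share of the set was higher with IGF2BP3 in 0 of 3, and without *MALAT1* in 3 of 3. The 465 left without *MALAT1* still held *TUG1*, which was picked for this contrast. *TUG1* alone differed by 0.0148 percentage points, against 0.00848 for the 465, so nothing is read from the 3 of 3. With 4 shares put to the exact test, the adjusted values were 0.667 or higher, and with 3 libraries against 3 the smallest possible *P* is 0.1.

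**Figure D3:**
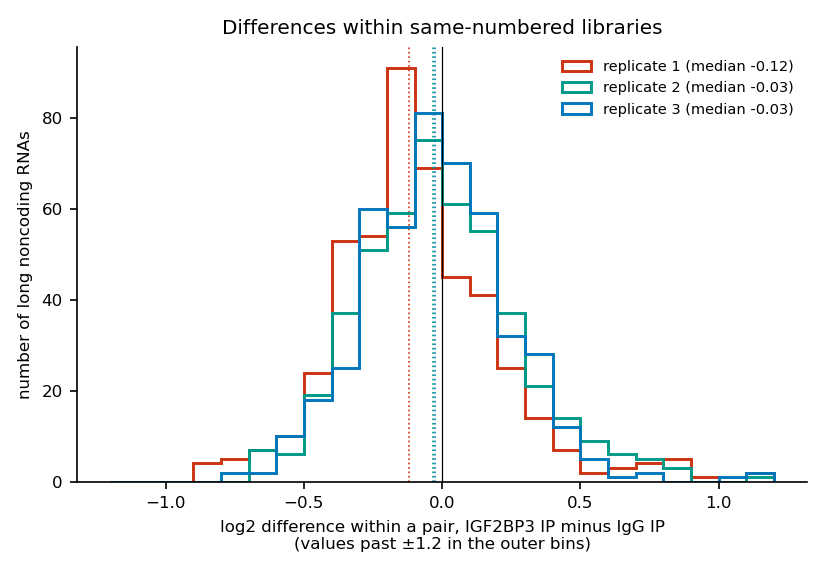
Number of lncRNAs of the set (vertical axis) by the log2 difference between the IGF2BP3 IP and IgG IP library of the same replicate number, with 1 outline per replicate. The medians, dotted, were -0.12 in replicate 1 and -0.03 in replicates 2 and 3, and the 3 distributions overlap.

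By role, the list of nuclear body and chromatin-associated lncRNAs had 13 tested of 20 listed. In edgeR 0 were called in either direction, against 1.16% higher and 0 lower of all tested genes. With the block and no fold minimum, 0 were higher and 2 lower, *MALAT1* and *NORAD*, against 10.9% and 5.23% of all tested genes. *NEAT1*, the scaffold of paraspeckles, had 1358 to 2511 counts and a log2 fold change of -0.08 (95% confidence interval -0.38 to 0.22). *NORAD* is a cytoplasmic RNA that binds Pumilio proteins, so it does not match the name of this list. It had 8032 to 17129 counts and a log2 fold change of -0.19, with an adjusted *P* of 0.62 in edgeR and 0.014 with the block. The median over the 13 was -0.12.

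Of 33 snoRNA host RNAs listed, 26 were tested and 0 were called in edgeR in either direction, with or without the block. Of all tested genes, 1.16% were called higher without the block and 3.56% with it. The 21 in the set had a median log2 fold change of -0.15, and 14 were below 0. Less the median of all tested genes, this was -0.15 in this fit and -0.07 on log2(TPM + 1). With 1 library left out the same difference ran from -0.31, without IGF2BP3 IP replicate 1, to 0.05, without IgG IP replicate 1, where 7 of 21 were below 0. *GAS5*, a growth arrest-associated host, had normalized CPM of 199, 121 and 112 with IgG and 152, 109 and 103 with IGF2BP3. Replicate 1 was the highest of each group and the groups overlapped. Its log2 fold change was -0.24, with a standard error of 0.22, and 0.058 without IgG IP replicate 1.

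With the block and no fold minimum, 2 of the 26 tested snoRNA hosts were higher and 6 lower, against 10.9% and 5.23% of all tested genes. The 2 higher were *DANCR* and *SNHG16*. *DANCR*, known for its part in keeping progenitor cells undifferentiated, had normalized CPM of 112, 86.6 and 88.3 with IgG and 135, 109 and 114 with IGF2BP3. The groups overlapped, since IgG IP replicate 1 was above IGF2BP3 IP replicate 2, while the pairs differed by 0.27, 0.32 and 0.37. The log2 fold change was 0.32 (adjusted *P* = 0.32 in edgeR, 0.0006 with the block). *SNHG16* had 181, 180.5 and 191 CPM against 218, 221 and 229, with no overlap and a log2 fold change of 0.28 (adjusted *P* = 0.12 in edgeR, 0.001 with the block). Both stayed under the 1.5-fold minimum. The 6 lower with the block were *SNHG30*, *SNHG6*, *SNHG3*, *SNHG8*, *GAS5* and *SNHG10*, at log2 fold changes from -0.29 to -0.20 without it. *SNHG3* alone among these 6 had all IGF2BP3 IP libraries below all IgG IP libraries.

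**Figure D4:**
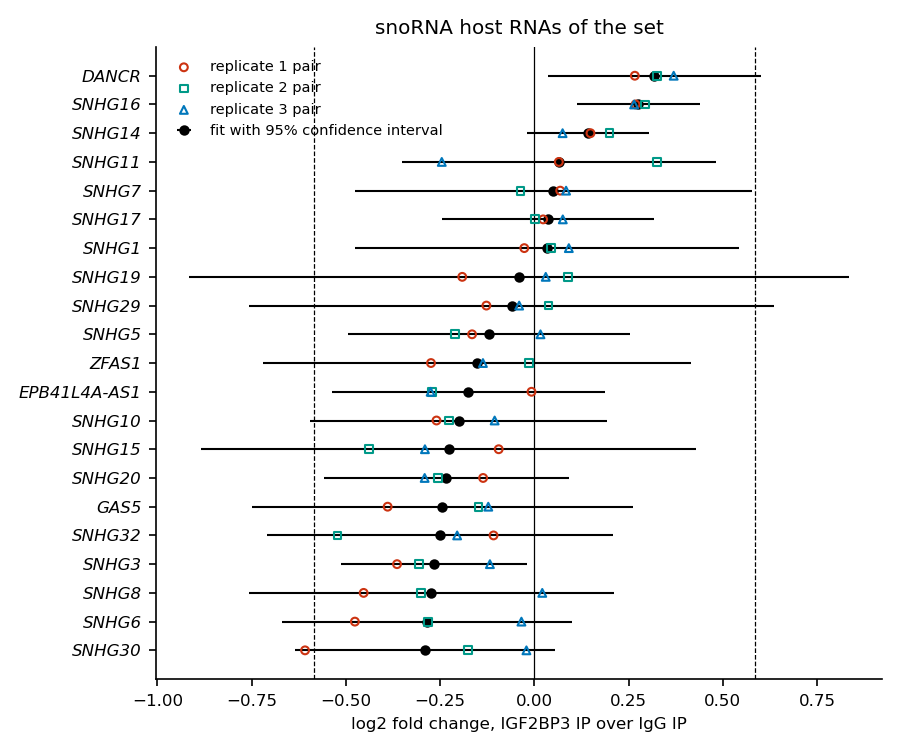
Fitted log2 fold change of IGF2BP3 IP over IgG IP with its 95% confidence interval (black) for the 21 snoRNA hosts of the set, with the difference in each same-numbered pair as open symbols. Dashed lines mark 1.5-fold. *DANCR* and *SNHG16* are the topmost, and most intervals cross 0.

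Of 14 lncRNAs reported as partners of IGF2BP proteins, 9 were tested and 0 were called in edgeR or with the block. Of all tested genes, 1.16% and 3.56% were called higher in these fits. At any fold, 2 were higher with the block, *H19* and *DANCR*, and 2 lower, *MALAT1* and *GAS5*, against 10.9% and 5.23% of all tested genes. *H19*, the imprinted RNA beside *IGF2*, had 50, 240 and 185 counts with IgG and 84, 312 and 227 with IGF2BP3. Replicate 1 was far below the others in both groups, and the groups overlapped. The log2 fold change was 0.41, with a wide 95% confidence interval of -0.62 to 1.43 (adjusted *P* = 0.76 in edgeR, 0.016 with the block). That interval includes both no change and 1.5-fold in either direction. Of 18 tested microRNA hosts and 5 tested lncRNAs each from imprinted clusters and the p53 and DNA damage response, 0 were called in edgeR, with or without the block. The shares of all tested genes called higher were again 1.16% without the block and 3.56% with it. At any fold, the block gave 1 higher among the microRNA hosts and 1 among the imprinted RNAs, *H19* in both lists. It gave 2 lower in the p53 list, *GAS5* and *NORAD*, beside the same 10.9% higher and 5.23% lower of all tested genes.

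Among 7 tested lncRNAs known from neurons or neuroendocrine cells, *EMX2OS* was the 1 called, against 1.16% of all tested genes. *CRNDE*, raised in many tumors, had normalized CPM of 103 ± 25.4 with IgG and 85.7 ± 20.2 with IGF2BP3 (SD, n = 3 each), which overlapped, and was lower within each pair by -0.28, -0.23 and -0.29 (adjusted *P* = 0.62 in edgeR, 0.0044 with the block). Of 30 tested cancer-associated lncRNAs, 3 were called, *TUG1*, *LINC01278* and *LINC00294*, against 1.16% of all tested genes. The first 2 of these were picked on this contrast, so nothing is read from that count. With the block there were 4, against 3.56% of all tested genes, the addition being *FOXD2-AS1*, which had 24 to 66 counts and lay outside the set. *NUTM2A-AS1* had a log2 fold change of 0.30 and passed at any fold with the block (adjusted *P* = 0.0053 with it and 0.34 without, in edgeR).

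The count minimum in every library leaves out RNAs that were scarce in the IgG IP. Over all 1846 tested genes typed as lncRNA, 4 (0.217%) were called higher and 0 lower in edgeR, against 1.16% and 0 of all tested genes. With the block 27 (1.46%) were higher and 8 (0.433%) lower, against 3.56% and 0.103%. The share called lower with the block was thus above that of all tested genes, and these 8 RNAs lay outside the set. They were scarce, with 2 to 91 counts per library, and their edgeR adjusted *P* without the block was 0.11 to 0.35. The 1 called RNA outside the set was *AL109976.1*, with 22, 71 and 42 counts with IgG and 89, 198 and 155 with IGF2BP3. Its log2 fold change was 1.70 (adjusted *P* = 0.037 from edgeR). Its groups did not overlap, and replicate 1 was the lowest of both. At the count minimum itself, *AL009178.3*, *AC011479.4* and *AL109627.1* had a lowest count of 50, and *AL365361.1*, *ACVR2B-AS1* and *AC000068.1*, just outside, had a lowest count of 49.

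The lncRNAs differed from the coding genes in build. GENCODE version 44 held 461 of the 466. Their canonical transcripts had a median of 1895 bases and 3 exons, against 3626 bases and 9 exons in the protein-coding genes at the same minimum, and 96 of the 461 had a single exon. Median GC content was 47.6% against 46.1%. Across genes, which are not independent replicates, the rank correlation of log2 fold change with GC content was 0.20 over the set and 0.41 over all tested genes with an annotation.

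CACA and GGC were counted along the canonical transcript, on the sense strand and with overlaps allowed. CACA occurred at a median of 4.57 per kb in the set and 4.30 in all tested genes, and 97.8% of transcripts in each held at least 1. GGC occurred at 15.5 per kb in the set, 16.4 in all tested genes and 23.0 in the 169 genes called higher, which were chosen by the same contrast. The rank correlation of GGC density with log2 fold change was 0.16 over the set and 0.35 over all tested genes. That of CACA was 0.08 and 0.17. GGAC and CAT, counted as well, gave 0.05 and 0.01 over the set and 0.30 and -0.11 over all tested genes. Whether the value for GGC goes beyond that for GC content was not tested. *LINC01278* was high in CACA, at 7.06 per kb (percentile 81.5 of the set), and low in GGC, at 10.6 per kb (percentile 17.6). *TUG1* had 3.88 and 13.0 per kb, and *LINC00294* 3.93 and 15.4, all below the set's median. *EMX2OS* had 0 CACA in a canonical transcript of 520 bases, which is only a small part of its annotated exons. The 348 bases that overlap *EMX2* were 3.90% of those exons. The rest was not searched for motifs, so the 0 does not describe the whole RNA recovered.

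Exons of 231 lncRNAs overlapped a counted gene on the opposite strand, those of 30 a gene on the same strand, and 216 overlapped neither. The median log2 fold change was -0.06 in those with no overlap and -0.06 in those with an opposite gene. Over 244 lncRNAs with a tested partner the rank correlation of the 2 fold changes was 0.20. *AC011603.2* was at 0.95 beside 0.93 for *TUBA1B*. *EPB41L4A-AS1*, a snoRNA host, had -0.18 beside 0.86 for *EPB41L4A*, which was called (adjusted *P* = 0.012 from edgeR) and covers 51.2% of its exons.

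**Figure D5:**
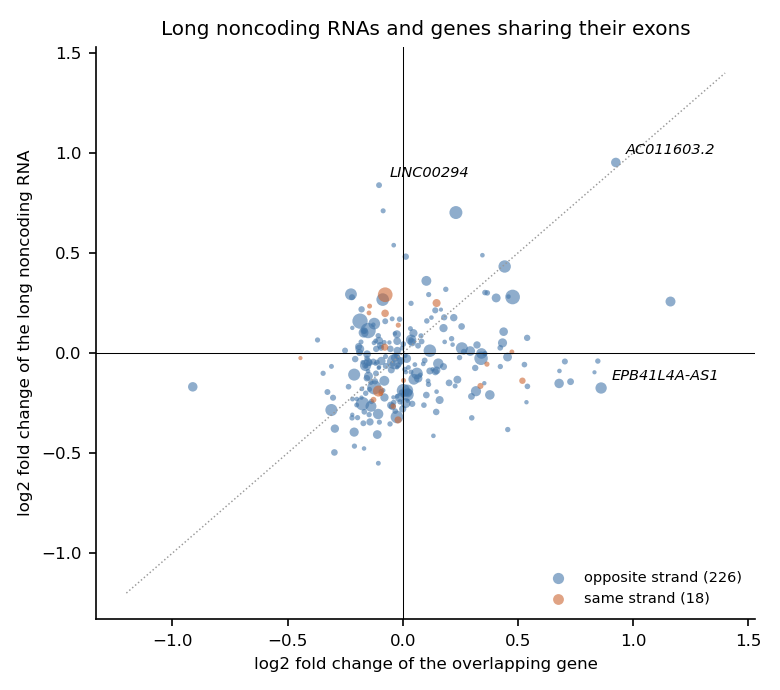
Log2 fold change of each lncRNA (vertical) against that of the tested gene sharing most of its exon bases (horizontal), blue for the opposite and orange for the same strand, with larger points for a larger share of the lncRNA's exons and a dotted line at equality. *AC011603.2* sits near the line at 0.95 beside 0.93, *EPB41L4A-AS1* lies below 0 beside 0.86, and most points cluster around 0 on both axes.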

How the data were processed

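RIP-seq of 3 IgG IP and 3 IGF2BP3 IP libraries from WaGa cells was used, with groups and replicate numbers from the labels. The authors aligned 150 bp paired-end reads to GRCh38 with STAR 2.7.9a, quantified them with RSEM on GENCODE version 37, and deposited a table of raw, whole-number counts for each gene and another of TPM values. FPKM values were not used here. The program behind the counts, and its use of strand, are not given in the sources used here, so overlapping genes are uncertain.

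Counts were filtered with filterByExpr (14507 genes), normalized with TMM and tested in R 4.3.3 with the quasi-likelihood method of edgeR 4.0.16, modelling condition alone, and adjusted over all tested genes. The methods' DESeq2 (version 1.42.0) was an alternative, as were limma 3.58.1 (voom, and trend on log2 of TPM plus 1 or 0.1), other scalings and filters, a per-library loess correction for GC content (span 0.5), a replicate block, other count minimums for the set, and leaving out each library. Fitting with both replicate 1 libraries left out was chosen after seeing the data. The fits were tested on simulated counts that held no replicate or GC effect. That simulation therefore cannot show how the block or the GC correction handles such effects.

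The labels number replicates 1 to 3 in both groups. After subtracting group means, same-numbered libraries correlated across genes at 0.57, 0.28 and 0.23, so the numbers were taken to pair the samples. Replicate 2 of one group and 3 of the other gave 0.28 and 0.27, as high as 2 of those.

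Named genes were *TUG1*, *LINC01278*, each lncRNA called, the 5 largest and 5 smallest log2 fold changes, the 5 highest mean TPM, 3 genes on each side of the count minimum, role-list members and overlapping genes. *RMRP*, *LINC01266*, *AC005261.1*, *AC025181.2*, *HOXD-AS2* and the 4 RNAs that the block added to the edgeR calls were named after their values were seen. The set and lists were chosen with earlier results of these data known. Sequences, exons and coordinates came from GENCODE version 44 on GRCh38. Counting error alone is covered by depth, since reads carry no molecular identifiers.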

Additional observations from a re-analysis of the deposited data

How the results depend on the processing

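Called counts moved with the test. Over all tested genes, 169 higher and 0 lower became 281 higher with DESeq2, 359 and 1 without a filter, 517 and 15 with the replicate block in edgeR, 321 and 1 with it in DESeq2, 82 higher with the GC correction, and 268 and 35 with GC correction and block. On log2(TPM + 1) and log2(TPM + 0.1), which moved the all-gene median by 0.11 and 0.13, 0 passed over all genes and 0 in the set. In the set, 4 called higher (2 without *TUG1* and *LINC01278*) became 8 (6) with the block in edgeR, and the 2 became 4 with DESeq2, 5 without a filter, 4 with the block in DESeq2 and 4 with GC correction and block, which called 3 of the set lower. Leaving out both replicate 1 libraries gave 472 higher and 10 lower over all genes and 7 (6) in the set. Leaving out 1 library gave 0 to 243 over all genes, 0 to 6 in the set and 0 to 4 without the added pair, with 0 lower each time. The set's median of -0.06 was 0.063 and 0.073 on the TPM scales, still below all genes, and ran from -0.10 to 0.013 with 1 library left out, above 0 without IgG IP replicate 1. The share difference ran from -0.10 to -0.0025 percentage points with 1 library left out and was -0.05 within pairs, as the block does. Without IgG IP replicate 1, *SNHG8* and *GAS5* changed sign, their log2 fold changes with 1 library left out running from -0.44 to 0.018 and from -0.44 to 0.058. None of the other 21 fold changes followed across the alternatives did. *EMX2OS* lost its call on both TPM scales and with the GC correction, block or not, *LINC00294* on both TPM scales, and each lost it without IgG IP replicate 2 or 3 or IGF2BP3 IP replicate 2 or 3, at log2 fold changes of 0.68 to 0.75 and 0.72 to 0.93. *AL109976.1* lost its call in limma-voom, with the GC correction, on both TPM scales and without any library other than IGF2BP3 IP replicate 1. The cause of these changes was not tested. The log2 fold change of *LINC01278* was 1.13 and 1.43 on the TPM scales, and that of *TUG1* 0.77 and 0.78. Depth limits the scarcer lncRNAs most.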
